A study of Mus musculus with 10 samples.

Results

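The extracellular matrix genes described here are fibronectin and the genes of the elastic fibre. They were *Fn1*, the fibrillins *Fbn1* and *Fbn2*, elastin (*Eln*), the fibulins *Fbln1*, *Fbln2*, *Fbln5* and *Efemp2* (fibulin 4), and the latent TGF-beta binding proteins *Ltbp1* and *Ltbp3*. These 10 genes were chosen by name from the 55359 genes of the table, and each was found there under 1 identifier. Of the 10, 8 had a mean level of at least 0.5 FPKM (counts divided by transcript length and library size) and were tested. In si-*Fndc1* cells, *Fbn1*, *Fbln2*, *Ltbp1*, *Ltbp3* and *Fn1* were lower than in si-Control cells, and of these only *Fbn1* was still lower and called once GC content and transcript length were taken into account. Their mean FPKM decreased by 9.47% for *Fn1* and decreased by 22.5% for *Ltbp3*, with the others in between. *Fbln1*, *Fbln5* and *Efemp2* did not pass the test, and *Fbn2* and *Eln* had almost no counts. With GC content and transcript length taken into account, *Efemp2* was higher and called. Neither that call nor that of *Fbn1* held once the replicate number was added as a block.

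C2C12 is an immortalized mouse myoblast line that fuses into multinucleated myotubes when serum is lowered. Both groups were the same line, grown in 20% serum and differentiated in 2% horse serum per the labels, and both were transfected with siRNA at 100 nM, against *Fndc1* in si-*Fndc1* (n = 5) and with a control sequence in si-Control (n = 5). The knockdown is transient and partial, and no other allele or agent is named. Labels and methods put the cells at day 4 of differentiation, and the text of the series gives a time of 48 h after transfection. The study asked which pathways respond when *Fndc1*, which codes for a secreted protein with fibronectin type III domains, is reduced in differentiating myoblasts.

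Fibronectin is a secreted dimer that cells pull into fibrils through integrin α5β1, and other matrix proteins are laid down on these fibrils. Fibrillins form microfibrils, on which elastin is deposited with the help of fibulins and then cross-linked by lysyl oxidases. Latent TGF-beta binding proteins tether the inactive growth factor to fibronectin and to microfibrils. Myoblasts are surrounded by fibronectin, and the pericellular matrix is rebuilt as they fuse.

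The total count was 66771605 to 75995168 in the si-Control libraries and 56332844 to 72839369 in the si-*Fndc1* libraries. *Fndc1* itself averaged 27.8 ± 2.04 FPKM in the si-Control libraries (SD, n = 5) and 20.9 ± 1.70 FPKM after knockdown, a mean ratio of 0.752, and the ranges (24.7 to 29.6 and 18.7 to 23.5) did not overlap. The log2 fold change of *Fndc1* in the edgeR test was -0.40 (adjusted p = 0.000934). With GC content and transcript length taken into account it was -0.23 (adjusted p = 0.00846). All 12 muscle markers were tested and their summed level ranged from 4384 to 4887 FPKM without and from 4162 to 4907 FPKM with the knockdown. Of these 12, 4 rose and 1 fell in the edgeR test, where 17.3% of all tested genes rose and 17.2% fell. The 15 hepatocyte markers, genes of the liver, summed to between 0.0457 and 6.51 FPKM in si-Control libraries and to between 54.8 and 189 FPKM in si-*Fndc1* libraries, and 13 of 13 tested rose. None of the 15 was at 0 in every si-Control library. The 8 fibroblast markers summed to between 9.88 and 11.6 FPKM in si-Control, against 10.2 to 11.1 in si-*Fndc1*, with *Thy1* and *Col15a1* near 0. The 5 smooth muscle markers summed to 71.3 to 79.3 and 66.0 to 74.6 FPKM, with *Myh11* near 0. In the edgeR test 1 of the 4 smooth muscle markers tested rose and 2 fell, and none of the 5 fibroblast markers tested was called. The 5 endothelial markers summed to 0.0955 to 0.135 and 0.124 to 0.292 FPKM, with *Cdh5* and *Emcn* without a count. In these bulk libraries, fewer cells of a type and less RNA per cell cannot be told apart. The labels do not say whether the 5 replicates of a group were separate cultures, and if they were not, p-values measure only the spread between these libraries.

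Windows upstream of the transcription start were listed for 7 of the 10 genes in RefSeq (GRCm38.p6), and those of *Fn1*, *Eln* and *Fbn2* were not. The 250 bases before the start are shown for *Fbn1*, *Fbln2* and *Ltbp3*, which have 1 window each and were lower in all 5 si-*Fndc1* libraries, so that the members that moved in the same direction can be set side by side. Capitals mark the GC box GGGCGG, on either strand, in *Fbn1* (minus strand, chr2:125506439-125506688) and *Fbln2* (plus strand, chr6:91212514-91212763). In *Ltbp3* (plus strand, chr19:5740650-5740899) capitals mark CAGAC, the core of the element bound by SMAD proteins.
Fbn1: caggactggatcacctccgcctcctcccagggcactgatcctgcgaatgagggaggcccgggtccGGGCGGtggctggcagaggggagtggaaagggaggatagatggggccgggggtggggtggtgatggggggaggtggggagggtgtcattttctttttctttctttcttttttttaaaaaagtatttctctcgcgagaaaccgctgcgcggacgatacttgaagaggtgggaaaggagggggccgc
Fbln2: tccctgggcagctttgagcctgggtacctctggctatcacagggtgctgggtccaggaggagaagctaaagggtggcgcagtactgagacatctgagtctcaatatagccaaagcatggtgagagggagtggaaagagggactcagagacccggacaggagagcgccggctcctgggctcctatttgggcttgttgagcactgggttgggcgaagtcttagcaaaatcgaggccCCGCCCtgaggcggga
Ltbp3: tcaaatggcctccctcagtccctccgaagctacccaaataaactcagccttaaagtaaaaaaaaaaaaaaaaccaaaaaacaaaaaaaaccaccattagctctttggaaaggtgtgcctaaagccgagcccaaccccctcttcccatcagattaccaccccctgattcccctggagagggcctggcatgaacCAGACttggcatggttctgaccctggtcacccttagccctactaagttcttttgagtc
The windows differ in composition, with a GC content of 59.2% for *Fbn1*, 58.8% for *Fbln2* and 47.2% for *Ltbp3*. The 7 genes have 12 windows in all. GGGCGG was found in 7 of the 12, upstream of *Fbn1*, *Fbln1*, *Fbln2*, *Fbln5* and *Efemp2*, and in 32.7% of all 32851 windows. CAGAC was found in 7 of the 12, upstream of *Fbln1*, *Fbln5*, *Efemp2*, *Ltbp1* and *Ltbp3*, and in 42.2% of all windows. The E-box CANNTG was found in 6 of the 12, upstream of *Fbln1*, *Fbln2*, *Fbln5*, *Ltbp1* and *Ltbp3*, and in 66.2% of all windows. E-boxes are not marked in the windows shown. TATAAA was found in none of the 12 and in 12.4% of all windows. None of these motifs was found for all 4 of *Fbn1*, *Fbln2*, *Ltbp1* and *Ltbp3*, and the matches describe letters in a window only.

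Fibronectin was by far the most abundant of these transcripts. *Fn1* (ENSMUSG00000026193, chromosome 1, 71624679 to 71692334, minus strand, as listed in the table, which names no genome build) was the gene with the most counts in all 10 libraries. It took 3.31% ± 0.12 (SD, n = 5) of all counts in si-Control and 3.01% ± 0.15 in si-*Fndc1*. Its level was 2596, 2439, 2689, 2549 and 2493 FPKM in si-Control replicates 1 to 5, and 2304, 2476, 2321, 2277 and 2179 FPKM in si-*Fndc1* replicates 1 to 5. Of the si-*Fndc1* libraries 4 lay below every si-Control library, and replicate 2 lay within the si-Control range. The fitted log2 fold change was -0.14 (95% confidence interval -0.22 to -0.05, adjusted p = 0.0216, edgeR quasi-likelihood test over 13548 genes), and the two-sided exact permutation test of the FPKM levels gave p = 0.0159.

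The call on *Fn1* was the least stable of the 5, and held under 16 of 23 other settings, against 20 to 22 for the others. It was lost when replicate 1 of si-Control was left out (log2 fold change -0.13, adjusted p = 0.0549), when replicate 3 of si-Control was (-0.12, adjusted p = 0.0590) and when replicate 1 of si-*Fndc1* was (-0.13, adjusted p = 0.0502). After an offset for GC content and transcript length in each library, the *Fn1* difference turned to 0.07 (adjusted p = 0.0719). Hepatocytes also secrete fibronectin into plasma, and the hepatocyte markers moved with the groups as given above. In si-*Fndc1* replicates 1 and 5, which held the least of these markers (107 and 54.8 FPKM summed), against all si-Control libraries, the log2 fold change of *Fn1* was -0.19 (adjusted p = 0.0259), in a comparison chosen after seeing the data. The part of liver transcripts in the *Fn1* difference was not tested. The table gives 1 value per gene, so that the fibronectin splice forms, with 17 transcripts listed, are not separated.

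The fibrillins differed from each other most. *Fbn1* (ENSMUSG00000027204, chromosome 2, 125142514 to 125348305, minus strand), the main component of microfibrils, was 186, 173, 192, 184 and 176.5 FPKM in si-Control replicates 1 to 5. In si-*Fndc1* replicates 1 to 5 it was 150.3, 156, 145.5, 147 and 149 FPKM. All 5 si-*Fndc1* libraries lay below all 5 si-Control libraries. The mean fell from 182.5 ± 7.57 to 149.7 ± 4.06 FPKM (SD, n = 5), with a log2 fold change of -0.28 (95% confidence interval -0.35 to -0.20, adjusted p = 0.000166). The exact permutation test gave p = 0.00794, the smallest that 5 libraries against 5 can give. *Fbn1* was the member whose direction and call held after the GC content and length offset, at a log2 fold change of -0.10 (95% confidence interval -0.15 to -0.04, adjusted p = 0.0205). With the offset and the replicate number as a block it was not called (-0.10, adjusted p = 0.0859).

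*Fbn2* (ENSMUSG00000024598), a fibrillin made mostly in embryonic tissue, had 0 counts in each of the 10 libraries, which allows up to 0.0395 to 0.0533 CPM (counts scaled to library size), depending on the library (3 counts of the total). This limit covers counting error only, and does not cover reads lost in annotation or counting, which the table does not show. The nearest tested genes on both sides of it, *Slc12a2* and *Isoc1*, had 65597 and 15118 counts in all. A ratio of *Fbn2* to *Fbn1* could therefore not be computed.

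*Eln* (ENSMUSG00000029675), the elastic core protein of the fibre, was at the limit of detection. It had 3, 0, 0, 0 and 12 counts in si-Control replicates 1 to 5 and 0, 0, 0, 4 and 0 in si-*Fndc1* replicates 1 to 5, which makes 19 in all. No fold change or ratio to *Fbn1* is given at such counts. The microfibril component was thus read at 113049 to 191164 counts per library, and elastin at 0 to 12.

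**Figure D1:**
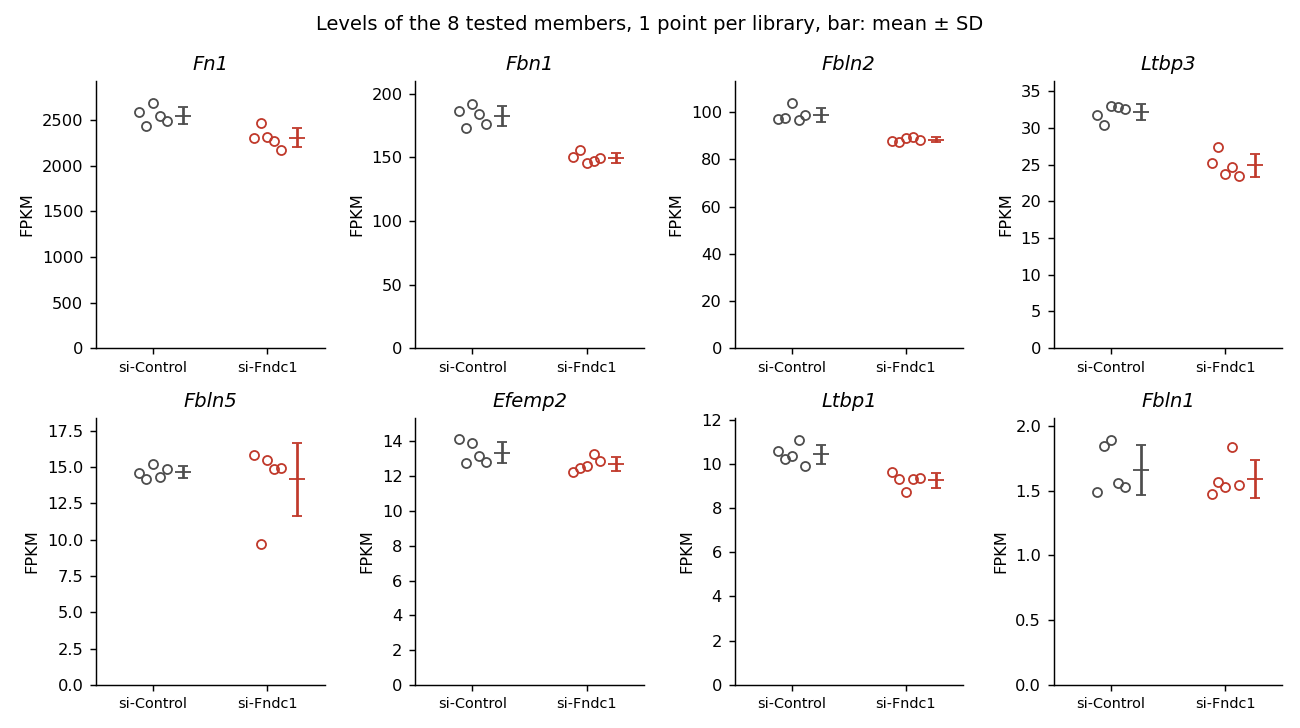
Level in FPKM (y axis, from 0) of each of the 8 tested members in every library, with si-Control in grey and si-*Fndc1* in red, 1 circle per library and the mean ± SD beside them (n = 5). The groups are apart for *Fbn1*, *Fbln2*, *Ltbp3* and *Ltbp1*, 1 si-*Fndc1* library of *Fn1* lies among the si-Control values, and si-*Fndc1* replicate 2 of *Fbln5* lies at 9.725 FPKM.

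Among the fibulins, which bind fibronectin, fibrillin and elastin and link them in the fibre, *Fbln2* was the only member called before the offset for GC content and length. *Fbln2* (ENSMUSG00000064080, chromosome 6, 91189437 to 91249522, plus strand) was 97.2, 97.6, 104, 96.8 and 99.0 FPKM in si-Control replicates 1 to 5. It was 87.6, 87.2, 88.95, 89.6 and 88.4 FPKM in si-*Fndc1* replicates 1 to 5. The si-*Fndc1* libraries were tightly grouped, with a coefficient of variation of 1.09% against 3.01% in si-Control, and all 5 lay below the si-Control range. The log2 fold change was -0.16 (95% confidence interval -0.22 to -0.09, adjusted p = 0.00178), and the exact permutation test gave p = 0.00794. After the GC content and length offset the value was 0.06 (adjusted p = 0.184).

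*Fbln1* (ENSMUSG00000006369, chromosome 15, 85090150 to 85170736, plus strand), a partner of fibronectin and of basement membranes, was the lowest of the tested members. Its levels were 1.49, 1.85, 1.89, 1.56 and 1.53 FPKM in si-Control replicates 1 to 5 and 1.47, 1.57, 1.53, 1.84 and 1.54 FPKM in si-*Fndc1* replicates 1 to 5. The ranges overlapped widely, and the log2 fold change of -0.05 had a 95% confidence interval from -0.27 to 0.16 (adjusted p = 0.703). It had 422 to 653 counts per library and a coefficient of variation of 11.5% in si-Control and 9.07% in si-*Fndc1*, and this interval holds the value seen for *Fbln2*.

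*Fbln5* (ENSMUSG00000021186, chromosome 12, 101712824 to 101785314, minus strand), which binds elastin and lysyl oxidase-like enzymes, was 14.6, 14.2, 15.2, 14.4 and 14.9 FPKM in si-Control replicates 1 to 5. In si-*Fndc1* it was 15.8, 9.725, 15.5, 14.9 and 14.9 FPKM in replicates 1 to 5. Replicate 2 alone was low, and the other four lay above the si-Control median. The log2 fold change was -0.04 (95% confidence interval -0.29 to 0.20, adjusted p = 0.807), and 0.07 without si-*Fndc1* replicate 2 (adjusted p = 0.147).

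*Efemp2* (ENSMUSG00000024909, chromosome 19, 5523982 to 5532545, plus strand), or fibulin 4, which guides lysyl oxidase to elastin, was 14.1, 12.8, 13.9, 13.2 and 12.8 FPKM in si-Control replicates 1 to 5. It was 12.2, 12.5, 12.6, 13.3 and 12.9 FPKM in si-*Fndc1* replicates 1 to 5. Of these, 3 lay below the si-Control range, and the groups overlapped. The log2 fold change was -0.07 (95% confidence interval -0.16 to 0.03, adjusted p = 0.245), and it turned to 0.14 (95% confidence interval 0.04 to 0.23, adjusted p = 0.0391) after the GC content and length offset, a call lost when the replicate number was added as a block (adjusted p = 0.115). *Efemp2* shares 173 bases with *Mus81* on the other strand (3.76 FPKM in si-Control, log2 fold change -0.06, adjusted p = 0.721). The use of strand in counting is not given in the sources used here.

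Both latent TGF-beta binding proteins were lower in si-*Fndc1*. *Ltbp3* (ENSMUSG00000024940, chromosome 19, 5790932 to 5808560, plus strand), which is secreted in complex with the latent growth factor, had the largest fall among the members. It was 31.8, 30.4, 33.05, 32.9 and 32.6 FPKM in si-Control replicates 1 to 5 and 25.3, 27.5, 23.8, 24.7 and 23.4 FPKM in si-*Fndc1* replicates 1 to 5. No si-*Fndc1* library reached the lowest si-Control library. The mean fell from 32.2 ± 1.07 to 24.9 ± 1.60 FPKM (SD, n = 5), with a log2 fold change of -0.36 (95% confidence interval -0.46 to -0.26, adjusted p = 0.000198). The exact permutation test gave p = 0.00794. After the GC content and length offset the log2 fold change of *Ltbp3* was 0.0017 (95% confidence interval -0.05 to 0.06, adjusted p = 0.969).

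*Ltbp1* (ENSMUSG00000001870, chromosome 17, 75312563 to 75699507, plus strand), which anchors latent TGF-beta to fibronectin and fibrillin, was 10.6, 10.2, 10.4, 11.1 and 9.91 FPKM in si-Control replicates 1 to 5. It was 9.62, 9.305, 8.705, 9.29 and 9.36 FPKM in si-*Fndc1* replicates 1 to 5. The ranges did not overlap, although the highest si-*Fndc1* library came within 1 SD of the lowest si-Control library. The log2 fold change was -0.16 (95% confidence interval -0.24 to -0.09, adjusted p = 0.00471), and the exact permutation test gave p = 0.00794. The value was 0.0077 after the GC content and length offset (adjusted p = 0.904). With si-*Fndc1* replicates 1 and 5 alone it was -0.14 (adjusted p = 0.0753), at 2 libraries against 5.

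By level, the order of the 8 members was the same in both groups, from *Fn1* (2553 FPKM mean in si-Control) through *Fbn1* (182.5), *Fbln2* (98.9), *Ltbp3* (32.2), *Fbln5* (14.7), *Efemp2* (13.4) and *Ltbp1* (10.4) to *Fbln1* (1.66). In si-Control no pair of neighbours in this order overlapped in range. In si-*Fndc1*, *Fbln5* and *Efemp2* did. Among all 13548 tested genes, *Fn1* stood at position 13 by mean FPKM in si-Control, *Fbn1* at 188 and *Fbln2* at 384, whereas *Fbln1* stood at 10584.

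Of the 8 tested members 5 fell and none rose, against a background in which 17.2% of all 13548 tested genes fell and 17.3% rose in the same edgeR test. At an unadjusted p under 0.05 the counts were also 5 and 0, and DESeq2 gave 5 and 0. For 4 of the 8 members, and for 13.0% of all tested genes, the highest si-*Fndc1* level was below the lowest si-Control level. The median log2 fold change of the 8 members was -0.15, and that of all tested genes was 0.0043. The 5 members that fell had fold changes between -0.14 and -0.36 on the log2 scale.

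Fold changes in these libraries moved with the GC content of the transcripts across all genes. Over the 11185 genes with a known GC content and length, Spearman's correlation between GC content and log2 fold change was -0.523, as a description over genes that share the same 10 libraries. The median log2 fold change was 0.25 for genes with 36% to 38% GC and -0.25 for genes with 60% to 62% GC. The tested members, other than *Fbln5* (46.9% GC), lay above the median of 50.5% GC, from *Fbn1* at 52.3%, *Ltbp1* at 52.7%, *Fn1* at 53.5%, *Fbln1* at 54.7%, *Fbln2* at 57.0% and *Efemp2* at 58.8% to *Ltbp3* at 61.5%. Genes of 52% to 54% GC had a median log2 fold change of -0.08, with a middle 50% from -0.19 to 0.06. *Fbn1*, in that range of GC content, lay outside it at -0.28, whereas *Fn1* and *Ltbp1* lay inside it. Genes of 60% to 62% GC, the range of *Ltbp3*, had a median of -0.25 and a middle 50% from -0.36 to -0.10.

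**Figure D2:**
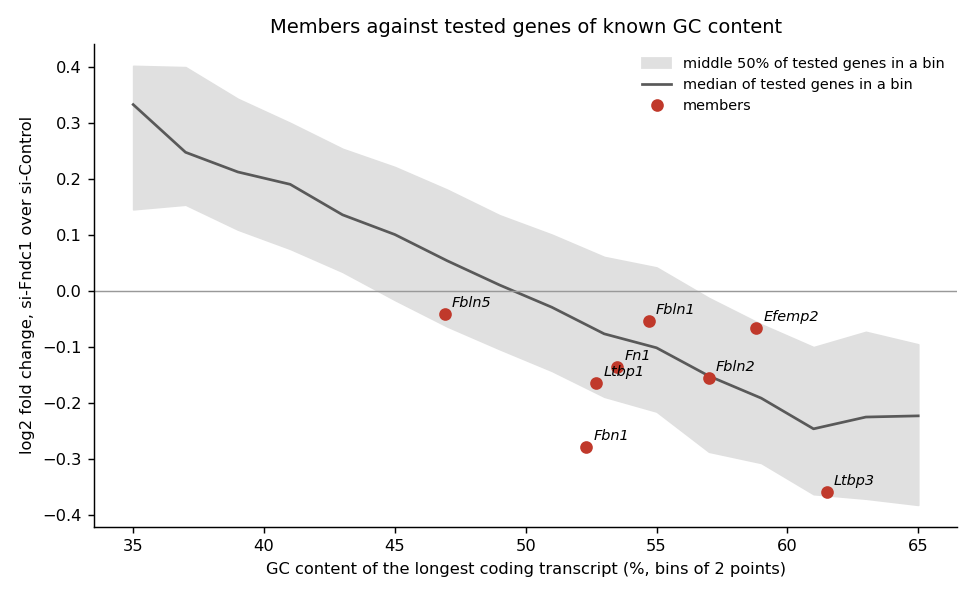
Log2 fold change of si-*Fndc1* over si-Control (y axis) against GC content in percent (x axis) for the 8 tested members (red points), with the median (line) and the middle 50% (band) of the 11185 tested genes with known GC content and length in bins of 2 percentage points that hold at least 20 genes. *Fbn1* lies below the band at 52.3% GC, and *Ltbp3*, at 61.5% GC, lies at its lower edge.

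With the offset, 1 of the 8 members fell (*Fbn1*) and 1 rose (*Efemp2*), where 11.3% of 11185 genes fell and 11.5% rose. The median of the 8 members was then 0.03 on the log2 scale. Of the 5 members that had fallen, *Fn1*, *Fbln2*, *Ltbp1* and *Ltbp3* changed sign, and their values ranged from 0.0017 to 0.07. Without the offset the same 11185 genes again gave 5 members that fell. The sources used here give no RNA quality or library date. Transcript length here is the length per gene implied by the ratio of the authors' counts and FPKM, which may differ from that of a given transcript. It was 4.22 kb (*Efemp2*) to 13.5 kb (*Fbn1*) in the tested members against a median of 4.94 kb.

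**Figure D3:**
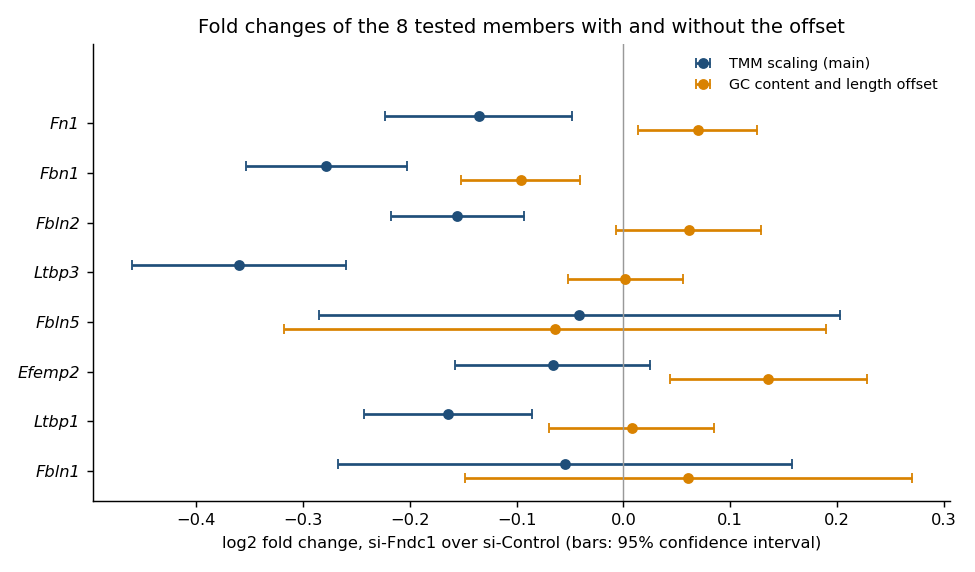
Log2 fold change of si-*Fndc1* over si-Control (x axis) with its 95% confidence interval for the 8 tested members, in blue as fitted with TMM scaling and in orange with the offset for GC content and length (n = 5 per group). *Fbn1* stays below 0 in both, at -0.28 and -0.10, and *Ltbp3* moves from -0.36 to 0.0017.

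Ratios of 2 members within a library do not depend on how libraries are scaled, and 3 of the 5 ratios intended could be computed. The ratio of *Ltbp3* to *Ltbp1* ranged from 2.97 to 3.28 in si-Control, above all values in si-*Fndc1* (2.50 to 2.95). Its log2 value differed by -0.20 (exact permutation p = 0.00794, 0.0238 after adjustment over the 3 ratios), so that *Ltbp3* fell more than *Ltbp1*. With the GC content and length offset the difference was -0.0064 (exact permutation p = 0.865). The ratio of *Fbln2* to *Fbln1* ranged from 52.8 to 65.3 in si-Control, overlapping that in si-*Fndc1* (48.7 to 59.5), and differed by -0.10 on the log2 scale (exact permutation p = 0.254, adjusted 0.381). The ratio of *Efemp2* to *Fbln5* ranged from 0.861 to 0.967 in si-Control, inside the si-*Fndc1* range of 0.773 to 1.28, with a difference of -0.0035 (exact permutation p = 0.984). Without si-*Fndc1* replicate 2, the library with the low *Fbln5* level, that difference was -0.13 (exact permutation p = 0.0397). This run was picked after seeing the data from those that each left out 1 library, and its p is not adjusted. With the GC content and length offset and all libraries the difference was 0.22 (exact permutation p = 0.0635).

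**Figure D4:**
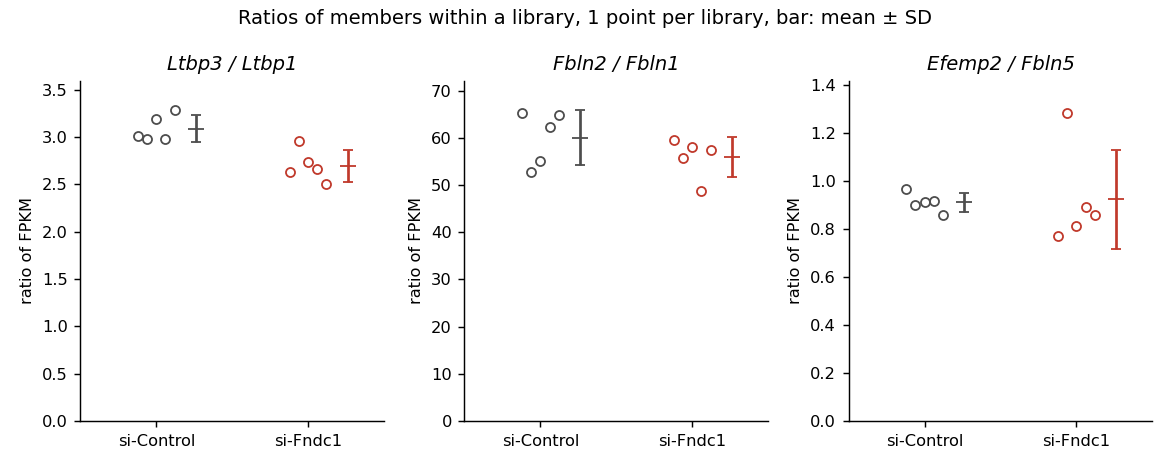
Ratio of FPKM values (y axis, from 0) of 2 members within each library for the 3 pairs, with si-Control in grey and si-*Fndc1* in red, 1 circle per library and the mean ± SD beside them (n = 5). The groups do not overlap for *Ltbp3* over *Ltbp1*, and 1 si-*Fndc1* library stands at 1.28 for *Efemp2* over *Fbln5*.

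Of 28 other genes that build or cross-link the elastic fibre 20 were tested. Of these 10 fell, 2 rose and 8 did not pass the test, where 17.2% of all tested genes fell and 17.3% rose, and their median log2 fold change was -0.20. *Hspg2* (perlecan, which binds microfibrils at basement membranes) went from 173.9 ± 9.22 to 115.7 ± 7.76 FPKM (log2 fold change -0.58, adjusted p = 3.3e-05). *Ltbp4*, which acts with *Fbln5* in elastin assembly, fell by 0.55 on the log2 scale (adjusted p = 4.2e-05). *Loxl1*, a cross-linking enzyme of elastin, fell by 0.36 (adjusted p = 4.2e-05). All 3 stayed lower with the offset, at -0.15, -0.21 and -0.14. *Mfap5*, a glycoprotein of microfibrils, rose from 24.3 ± 1.20 to 30.7 ± 2.95 FPKM (0.34, adjusted p = 0.00167) and stayed higher with the offset (0.23, adjusted p = 0.0263). *Lox*, the main lysyl oxidase, rose by 0.13 (adjusted p = 0.00439), a direction that turned with the offset (-0.04) and with quantile normalization (-0.04). With the offset 4 of the 20 fell and 1 rose, where 11.3% of all genes fitted fell and 11.5% rose.

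Among receptors and assembly partners of fibronectin, the chains of its main receptor were called in opposite directions before the offset only. *Itga5*, the α5 chain, went from 59.7 ± 1.65 to 51.1 ± 1.70 FPKM (SD, n = 5; log2 fold change -0.22, adjusted p = 0.00056). *Itgb1*, the β1 chain shared by many integrins, went from 287 ± 15.5 to 329 ± 26.1 FPKM (0.21, adjusted p = 0.0139). Its ranges overlapped, at 278.4 to 314.6 FPKM in si-Control and 311.3 to 375.5 FPKM in si-*Fndc1*. With the offset neither chain was called, at -0.02 for *Itga5* (adjusted p = 0.686) and 0.07 for *Itgb1* (adjusted p = 0.416). Quantile normalization gave 0.02 for *Itgb1* (adjusted p = 0.802). Of 26 genes of this list 24 were tested, of which 13 fell, 3 rose and 8 did not pass, with a median log2 fold change of -0.20, beside 17.2% and 17.3% of all tested genes. With the offset 5 fell and 3 rose, beside 11.3% and 11.5%.

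*Col1a1*, a chain of type I collagen, which is deposited on fibronectin, had the smallest p of this list and fell by 0.78 on the log2 scale (adjusted p = 6e-06), and by 0.52 with the offset. The adaptor *Tns2* fell by 0.30 (adjusted p = 7.5e-05) and the matrix protein *Tnc* by 0.23 (adjusted p = 4e-04). With the offset *Tns2* was at -0.06 (adjusted p = 0.0885) and *Tnc* at -0.11 (adjusted p = 0.0438). *Sdc2*, a heparan sulfate proteoglycan that binds fibronectin, rose by 0.34 (adjusted p = 4.9e-05), and by 0.13 with the offset. *Vtn* (vitronectin, a plasma protein made mainly by liver) had 0 to 16 counts per si-Control library and 112 to 609 per si-*Fndc1* library (adjusted p = 0.000208). The hepatocyte markers rose in the same libraries, with the sums given above, and their part in this difference was not tested.

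**Figure D5:**
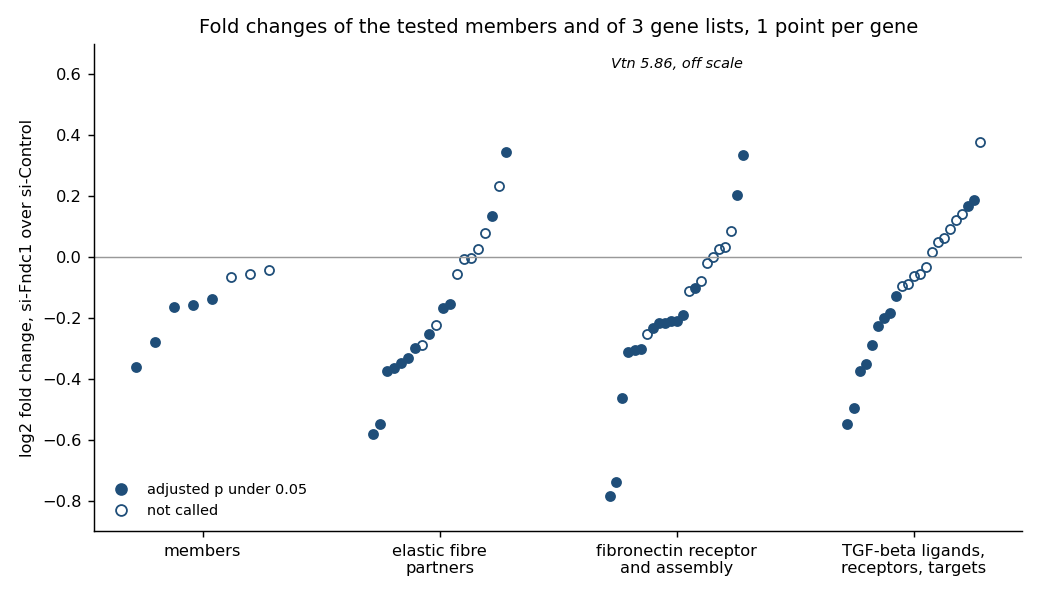
Log2 fold change of si-*Fndc1* over si-Control (y axis) for each tested member and for each tested gene of 3 lists (x axis), 1 point per gene, filled where the adjusted p was under 0.05. Of the filled points 5 of 5 members, 10 of 12 elastic fibre partners, 13 of 16 fibronectin receptor and assembly genes and 9 of 11 TGF-beta genes lie below 0, and *Vtn* lies off the scale at 5.86. The values are without the offset for GC content and length, and 17.2% of all tested genes fell and 17.3% rose. With the offset, in the same order, 1, 4, 5 and 6 genes fell and 1, 1, 3 and 2 rose. *Ltbp2* and *Ltbp4* are on both the elastic fibre and the TGF-beta list.

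For the growth factor that *Ltbp1* and *Ltbp3* tether, 23 of 27 ligand, receptor and target genes were tested. Of these 9 fell, 2 rose and 12 did not pass, with a median log2 fold change of -0.06, and with the offset 6 fell and 2 rose. The 2 were *Tgfb2* and *Tgfb1*, a ligand named after its values were seen, at 0.41 with the offset (adjusted p = 2.5e-05) and 0.09 without it (adjusted p = 0.108). Over all tested genes 17.2% fell and 17.3% rose, and 11.3% and 11.5% with the offset. *Ltbp4*, given above, and *Ltbp2* are on both this list and that of elastic fibre partners, so that they are counted in each. *Ltbp2* fell by 0.37 (adjusted p = 0.00055) and was not called with the offset (-0.09, adjusted p = 0.183). *Smad7*, an inhibitor and target of the pathway, fell by 0.49 (adjusted p = 1e-04) and by 0.32 with the offset. *Lrrc32*, which presents latent TGF-beta at the cell surface, fell by 0.35 (adjusted p = 0.000473), with -0.16 under the offset (adjusted p = 0.0571). *Tgfb2*, a ligand, rose by 0.17 (adjusted p = 0.00845), and *Postn*, a matrix protein induced by TGF-beta, rose by 0.19 (adjusted p = 0.0106). With the offset *Tgfb2* was at 0.14 (adjusted p = 0.0346) and *Postn* at 0.12 (adjusted p = 0.138). Neither was called when only si-*Fndc1* replicates 1 and 5 were kept, at 0.10 (adjusted p = 0.211) and 0.20 (adjusted p = 0.0766). These lists, like the members, were put together with earlier results of these data known, and their counts are descriptions.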

How the data were processed

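Per the labels, mRNA of C2C12 cells was sequenced in 5 si-*Fndc1* and 5 si-Control libraries. The authors deposited raw counts per gene for 55359 genes (26407 without a count), with an FPKM value beside each, listed as 0.0001 where no read was counted. The FPKM values equal the count over total count and a length per gene, which was itself derived from these counts and FPKM values. This held within 1% for 99.84% of values, in a check of 12006 genes with a count minimum of 100. It shows only that the ratio of count to FPKM is stable across libraries. The paper's methods name TopHat, mm10 and htseq-count for 4 libraries, the series text names STAR and mm9, and the submitters' processing notes name cutadapt 1.9, FastQC and GRCm39. 0 columns of library values were left without a sample.

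Counts were tested with edgeR 4.0.16 (quasi-likelihood, TMM factors 0.990 to 1.005, R 4.3.3) on the 13548 genes whose mean FPKM reached 0.5, with Benjamini-Hochberg adjustment over all of them and a threshold of 0.05. DESeq2 1.42.0 and limma 3.58.1 were alternatives. FPKM levels and ratios were compared by two-sided exact permutation tests. The GC content and length offset came from splines (5 degrees of freedom) on log counts (0.5 added) in each library, for the 82.6% of tested genes with GC content from NCBIM37 transcripts and a length. Scripts were tested on simulated data. Within groups, all 20 pairs of libraries differed beyond sampling noise (smallest chi-square 35.8 per degree of freedom). Depth was 56332844 to 75995168 counts.

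Members and gene lists were chosen with earlier results of these data known. The text names all members, *Fndc1*, *Itga5*, *Itgb1* and, of each list, up to 3 called genes with the smallest p in each direction. *Mus81*, *Slc12a2* and *Isoc1* are neighbours of members and were named after the table was seen. *Ltbp2* was named, also after its values were seen, as a gene shared between lists.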

Additional observations from a re-analysis of the deposited data

Results flagged for a closer look

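Among 24 genes, each looked at in both groups of 5 libraries (48 groups), 4 libraries stood apart from the others of their group by Dixon's criterion, which chance alone meets in about 1 of 20 groups. *Fbln5* was at 9.725 FPKM in si-*Fndc1* replicate 2, where the others were at 14.9 to 15.8, and *Fbln1* was at 1.84 FPKM in si-*Fndc1* replicate 4, where the others were at 1.47 to 1.57. *Itgb1* was at 314.6 FPKM in si-Control replicate 3 (others 278 to 284) and at 375.5 FPKM in si-*Fndc1* replicate 1 (others 311 to 322).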

How the results depend on the processing

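With the GC content and length offset, log2 fold changes turned sign for *Fn1* (0.0694), *Fbln1* (0.06095), *Fbln2* (0.0610), *Efemp2* (0.136), *Ltbp1* (0.0077), *Ltbp3* (0.0017) and *Lox* (-0.0371), and with the offset and the replicate block for the same genes (0.0696, 0.0631, 0.0608, 0.136, 0.0077, 0.0013 and -0.0378). Quantile normalization turned *Lox* (-0.0408), and si-*Fndc1* replicates 1 and 5 alone, chosen after seeing the data, turned *Fbln5* (0.0632), which ranged from -0.0819 to 0.0670 with 1 library left out. With the offset, members were called 1 up and 1 down, elastic fibre partners 1 and 4, fibronectin genes 3 up and 5 down, and 2546 of all genes. With the offset and the replicate block, members were 0 down and 0 up (*Fbn1* -0.0958, adjusted p = 0.0859), elastic fibre partners 0 up and 4 down, fibronectin genes 3 up and 3 down, TGF-beta genes 1 up and 3 down, and all genes 1651. Quantile normalization gave 1 rise among elastic fibre partners and 1 among TGF-beta genes. With replicates 1 and 5 alone TGF-beta genes were 0 up and all genes 2994. The cause was not tested, although fewer libraries entered that fit. The log2 ratio *Efemp2*/*Fbln5* was 0.22 with the offset and -0.13 to 0.0548 with 1 library left out. *Fbln2*/*Fbln1* was -0.12 with FPKM + 1 (exact permutation p = 0.0476), and *Ltbp3*/*Ltbp1* was -0.0064 with the offset. Leaving out 1 library gave 4 to 5 members down and 4000 to 4627 genes called.

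Same-numbered libraries did not deviate together (correlations -0.04 to 0.05, 1 of 5 best with its own number). These values cannot show whether such libraries were prepared together, and the labels do not say so. The replicate block alone gave 4 members down, without *Fn1* (-0.14, adjusted p = 0.0520), and 3572 genes called, and left the *Ltbp3*/*Ltbp1* difference at -0.20 (exact sign-flip p = 0.0625, the smallest possible). Without a filter *Fn1* was also not called (-0.14, adjusted p = 0.0660). Ratios with *Fbn2* and *Eln* could not be computed. *Eln*, at 0 to 12 counts per library, had too few counts for a fold change.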
